A study of Mus musculus with 2 samples.

Results

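The genes described here are 10 transcripts that heart muscle cells are known to make or induce under stretch and stress. They are Ankrd1, Ankrd2, Ankrd23, Acta1, Xirp1, Xirp2, Csrp3, Fhl1, Sprr1a and Rcan1, out of 24346 gene symbols in each deposited file. They were chosen by symbol after their values were known, because Ankrd1 and Sprr1a were lower and Acta1 was higher with probucol. The values below are therefore a description of that contrast and support nothing about it. All 10 passed the filter on low values, a mean of at least 0.5 FPKM over both libraries, but Ankrd2 did so only through its value in the untreated library.

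The samples were mouse heart tissue after a high-fat diet and myocardial infarction (HFD-MI, the second term taken from the series title), kept in RNAlater and frozen, at day 14. One library came from heart tissue labelled as treated with probucol, a cholesterol-lowering antioxidant drug, and 1 from untreated tissue, so each group has 1 library and every difference below lacks a check by replicates. The diet and the infarction are shared by both groups. The value columns of both files also carry the marks HypoE, a name in use for mice with a hypomorphic Apoe allele, and CM, but the labels state no genotype and explain neither mark, so none was assumed. The sources used here do not say whether a library came from 1 animal or a pool, or from which part of the heart.

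A heart muscle cell senses load at the Z-disc, where actin filaments of neighbouring sarcomeres are anchored, and along titin, the spring that spans the sarcomere. Proteins of these sites, such as the ankyrin repeat proteins Ankrd1, Ankrd2 and Ankrd23 and the LIM proteins Csrp3 and Fhl1, can bind titin or actin-associated proteins, and some also enter the nucleus. Overloaded or injured heart muscle is known to return to parts of a fetal programme, which includes skeletal actin and the natriuretic peptides. Transcription factors with known roles in this response are the TEAD factors, which bind MCAT elements, serum response factor (SRF), which binds CArG boxes, and AP-1.

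The labelled tissue matched its markers. All 10 cardiomyocyte markers were measured, with summed levels of 95247 FPKM with probucol and 68845 FPKM without. FPKM are fragments scaled to transcript length and to a measure of library size, so levels of different genes can be compared per length. From the steps between low values, a transcript with 1 kb of effective length received 6.67 fragments per FPKM with probucol and 7.43 without. How libraries were scaled to each other is not stated, so their depth cannot be read from these values. Macrophage markers were also present. The median log2 ratio over all 12882 measured genes was 0.01.

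The upstream sequences of the 4 genes with the largest differences are shown first, because elements bound by the factors named above can be looked for there. Each is the 250 bases before the RefSeq transcript start (GRCm38.p6, the same assembly as mm10), read 5′ to 3′ on the strand of the gene. Capitals mark every exact match to 1 of 3 motifs searched on both strands: MCAT (CATTCC, or GGAATG on the other strand), AP-1 (TGANTCA) and the CArG box.
Ankrd1, chr19:36119845-36120094, minus strand: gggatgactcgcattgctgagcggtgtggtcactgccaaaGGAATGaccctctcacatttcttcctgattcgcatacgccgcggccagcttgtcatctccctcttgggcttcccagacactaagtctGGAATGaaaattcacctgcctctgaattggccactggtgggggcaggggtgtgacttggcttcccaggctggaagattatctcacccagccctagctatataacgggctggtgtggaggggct
Acta1, chr8:123894776-123895025, minus strand: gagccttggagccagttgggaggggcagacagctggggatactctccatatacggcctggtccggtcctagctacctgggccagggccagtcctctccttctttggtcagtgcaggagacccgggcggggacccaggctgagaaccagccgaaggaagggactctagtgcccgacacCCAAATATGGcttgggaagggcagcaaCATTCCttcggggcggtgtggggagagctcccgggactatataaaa
Sprr1a, chr3:92485882-92486131, minus strand: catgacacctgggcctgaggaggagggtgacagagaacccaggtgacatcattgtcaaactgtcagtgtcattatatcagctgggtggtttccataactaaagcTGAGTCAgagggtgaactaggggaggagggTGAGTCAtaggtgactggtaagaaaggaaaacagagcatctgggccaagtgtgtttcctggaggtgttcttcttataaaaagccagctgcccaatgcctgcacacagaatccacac
Ankrd2, chr19:42035777-42036026, plus strand: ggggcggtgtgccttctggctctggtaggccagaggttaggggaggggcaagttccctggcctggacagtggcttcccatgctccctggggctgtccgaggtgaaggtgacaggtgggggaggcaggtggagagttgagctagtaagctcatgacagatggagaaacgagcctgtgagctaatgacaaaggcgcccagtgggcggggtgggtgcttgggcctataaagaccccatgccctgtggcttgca

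Ankrd1 held 2 MCAT matches, at 210 to 205 and at 123 to 118 bases before the start. Acta1 held 1 CArG box, at 73 to 64 bases, and 1 MCAT match, at 46 to 41 bases. Sprr1a held 2 AP-1 matches, at 146 to 140 and at 116 to 110 bases. Ankrd2 held no exact match to these motifs in this window. No matches overlapped. Windows were listed for 9 of the 10 genes, 13 windows in all, and Xirp1 had none. MCAT matches were present in 3 of the 13 windows, AP-1 matches in 3 and CArG boxes in 2. The remaining matches were 1 MCAT in the second listed window of Ankrd23, 1 AP-1 each in Xirp2 and in the second listed window of Rcan1, and 1 CArG box in the first listed window of Fhl1. Over all 32851 listed promoter windows, cut to the same length, 12.6% held MCAT, 6.75% held AP-1 and 1.47% held a CArG box. A match is a string of letters and no evidence of binding in these hearts.

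**Figure D1:**
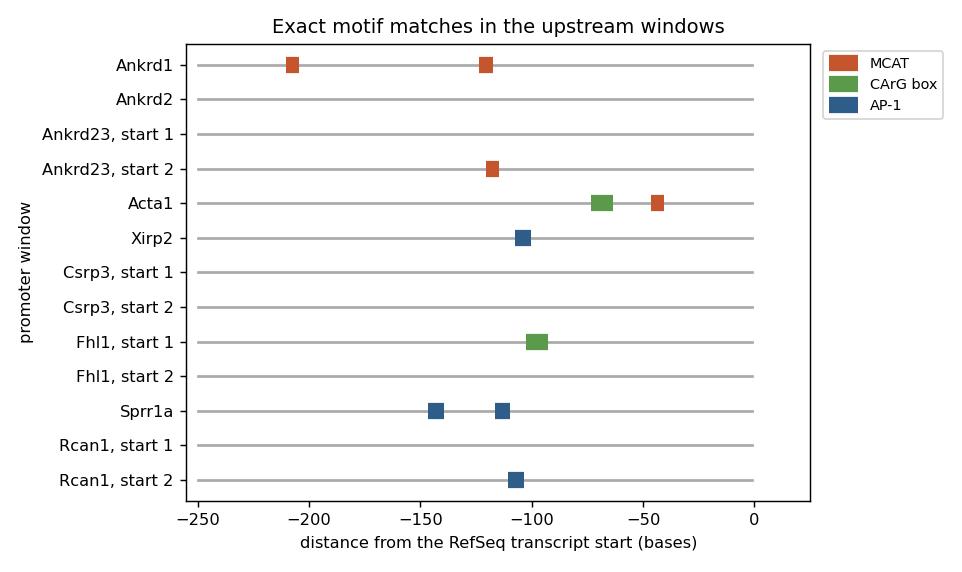
Exact matches to MCAT (orange), AP-1 (blue) and CArG box (green) motifs in the 13 upstream windows of 9 genes, drawn to scale; the horizontal axis is the distance in bases from the RefSeq transcript start. Ankrd1 has 2 MCAT matches, Sprr1a has 2 AP-1 matches, and Acta1 is the window with both a CArG box and an MCAT match.

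The 10 genes did not move as 1 group. With probucol, Ankrd1 and Sprr1a were lower by 2-fold or more and Acta1 was higher by that limit. Ankrd2, which was listed at 0 in 1 library, also lay past the lower limit on the scale used, which makes 3 lower genes and 1 higher. With a pseudocount or a filter of 5 FPKM the lower genes were 2, without Ankrd2. Over all measured genes, 5.14% were lower and 1.07% higher by the same limit. At the limit of 1.5-fold the same 3 and 1 genes passed, against 12.0% and 5.52% of all measured genes. Because the genes were picked by this contrast, nothing is read from these shares. Of the other 6 genes, 3 lay within 1.1-fold of equality and 3 between 1.1-fold and 1.5-fold. The median log2 ratio of the 10 genes, probucol over untreated, was -0.13. Their ratios spanned 4.21 log2 units, from -2.86 for Sprr1a to 1.35 for Acta1. All ratios are log2((FPKM probucol + 0.5)/(FPKM untreated + 0.5)), a scale that understates differences of low genes.

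**Figure D2:**
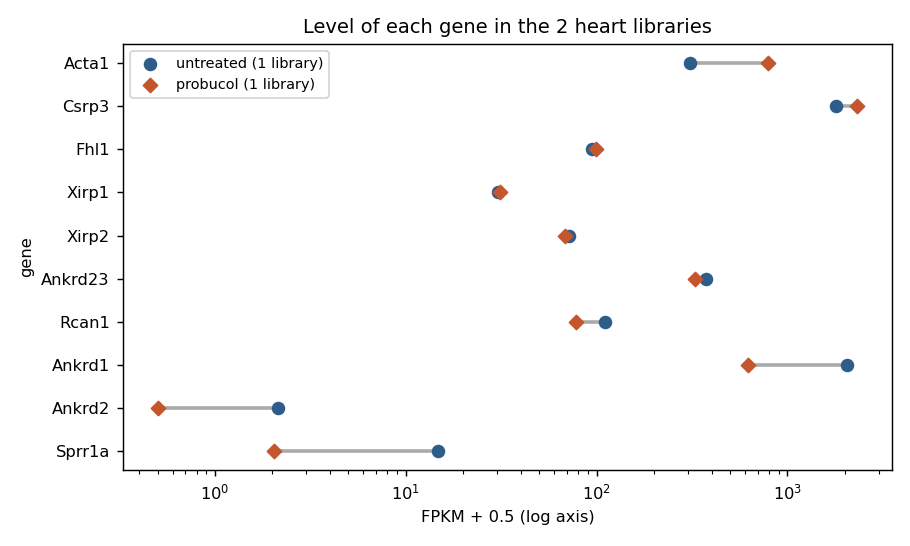
Level of each of the 10 genes as FPKM + 0.5 on a log axis, in the probucol library (orange diamonds) and the untreated library (blue circles), ordered by log2 ratio; grey lines join the values of a gene. Ankrd1 lies at 619 FPKM with probucol against 2051 FPKM without and Acta1 at 791 against 309 FPKM, while Xirp1, Xirp2 and Fhl1 nearly coincide.

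Ankrd1 encodes CARP, a cardiac ankyrin repeat protein that binds titin at the I-band and also acts in the nucleus. It was abundant in both libraries, with 619 FPKM with probucol and 2051 FPKM without. On the log2 scale the ratio was -1.73, or 3.31-fold lower with probucol. These levels stood for about 7475 and 27598 fragments. Here and below, the ratio set beside such numbers is that of FPKM. Its interval comes from the fragments, scaled by the FPKM value of 1 fragment in each library. For Ankrd1 the ratio was 0.302, with an exact binomial (Clopper-Pearson) 95% interval of 0.294 to 0.310. That interval, like those below, does not cover more than counting error, because neither group has replicate libraries. Variation between animals or between preparations is not in these intervals. Fragments copied by PCR are not separate molecules, so the intervals can be too narrow even for counting error. Among 19485 protein-coding symbols ranked by FPKM, Ankrd1 was at place 41 in the untreated library and at place 199 in the probucol library. Of 124 protein-coding genes that reached 1000 FPKM in either library, 5 were past 2-fold in this direction, against 5.14% of all measured genes. Ankrd1 had the second lowest ratio after Lyz2, but it reached 1000 FPKM only in the untreated library. This place depends on the limit: Ankrd1 was at place 4 of 254 genes at 500 FPKM and at place 9 of 498 at 200 FPKM. The gene lies on chromosome 19, 36111961 to 36120099 (GRCm38/mm10, minus strand), and no 50-base window of its RefSeq transcript occurred in transcripts of another gene.

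Of the other genes of this ankyrin repeat family, Ankrd23 had a much smaller ratio and Ankrd2 was near the limit of detection. Ankrd23, also called DARP, is a titin-binding paralog and had 326 FPKM with probucol and 372 FPKM without, a log2 ratio of -0.19. Ankrd2, the paralog best known from slow skeletal muscle, was listed at 0 with probucol and at 1.65 FPKM without. The latter value stood for about 11 fragments, while a count of 0 allows up to 3, so no fold is given for Ankrd2. It passed the 2-fold limit on the scale with the pseudocount, and at 5 FPKM as pseudocount its log2 ratio was -0.41. Ankrd1 made up 65.5% of the summed FPKM of the 3 genes with probucol and 84.6% without. The share of Ankrd23 was 34.5% against 15.3%, and the sum itself was 945 against 2424 FPKM. Of the 50-base windows in Ankrd23 transcripts, 86.5% also occurred in Gm42417, an overlapping gene model on the same strand that has no row in the files, so reads of the 2 models cannot be told apart.

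Sprr1a encodes a small proline-rich protein that is a precursor of the skin barrier, and it is also known as a gp130-inducible stress protein of heart muscle cells. It had 1.54 FPKM with probucol and 14.3 FPKM without, a log2 ratio of -2.86. The values stood for about 6 and 63 fragments, so the FPKM ratio of 0.108 had a wide interval, from 0.0376 to 0.244. Its place among protein-coding symbols was 4272 in the untreated library and 10156 in the probucol library. Of all 12882 measured genes, Sprr1a had the place 24 counted from the lowest ratio. Keratinocyte markers, which could accompany this gene, were at or near 0 in both libraries. Of 13 such markers in the files, 9 were listed at 0 in both, among them Krt5, Krt14 and Ivl, and their summed levels were 1.34 and 1.22 FPKM. Krt10 (0.634 against 0.640 FPKM), Lor and Trp63 were the highest. On chromosome 3 Sprr1a (92483952 to 92485895, minus strand) lies among other skin barrier genes, and its nearest neighbours Sprr1b, Sprr3, Sprr4 and Ivl were all listed at 0 in both libraries.

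Acta1 encodes skeletal alpha-actin, a striated actin of the fetal and overloaded heart in rodents. In the opposite direction to Ankrd1, it had 791 FPKM with probucol and 309 FPKM without, a log2 ratio of 1.35. About 6519 and 2840 fragments stood behind these values, with an FPKM ratio of 2.56 and an interval of 2.45 to 2.68. Of 498 protein-coding genes that reached 200 FPKM in either library, 4 were higher by 2-fold or more, against 1.07% of all measured genes. Acta1 followed Rps27 at the top of the 498, but it was chosen for its higher value. Ribosomal protein genes such as Rps27 are known to have near-identical copies in the genome, and whether its value includes reads of such copies was not tested. The difference was smaller relative to other heart muscle transcripts: centred on the median of 20 sarcomere and Z-disc genes, the log2 ratio was 0.87 and no longer past 2-fold. Acta1 lies on chromosome 8, 123891769 to 123894751 (minus strand), and 2.22% of its 50-base windows occurred in transcripts of other genes, mainly actin copies.

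Among the actins, the other abundant striated gene had a much smaller ratio. Actc1, the alpha-actin of the adult heart, had 9906 against 8283 FPKM, a log2 ratio of 0.26. The ratio of Acta1 to Actc1 within a library, which no scaling of a whole library can alter, was 0.0799 with probucol and 0.0373 without. Acta1 thus made up 7.08% of the summed FPKM of 6 actins with probucol and 3.29% without, while Actc1 held 88.7% and 88.3%. The cytoplasmic actins lay below 0, with Actb at 215 against 384 FPKM and Actg1 at 201 against 342 FPKM. The smooth muscle actin Acta2 had 56.7 against 65.2 FPKM, and Actg2 had 2.16 against 1.09 FPKM.

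Skeletal muscle could also contribute Acta1, so its markers were read beside it. Of 17 markers in the files, 8 were listed at 0 in both libraries, including Myh2, Myh4, Myod1, Myog and Pax7, and 4 passed the filter. Myh1 had 0.0257 FPKM with probucol and 0 without. Summed levels were 20.9 FPKM with probucol and 27.8 FPKM without, most of it from Mybpc2 with 12.6 against 22.8 FPKM. Tnni2 (5.21 against 2.63 FPKM), Mylpf (1.91 against 0.979 FPKM) and Tnnt3 (0.758 against 0.475 FPKM) went the other way, so 3 of the 4 measured markers lay above 0, around a median log2 ratio of 0.54. The part of skeletal muscle in the value of Acta1 was not tested.

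In the values as reported, Fhl1, Xirp1 and Xirp2 lay within 1.1-fold of equality, and Csrp3 was 1.29-fold higher with probucol. Csrp3 encodes muscle LIM protein, a Z-disc protein whose loss causes dilated cardiomyopathy in mice, and was the most abundant of the 10 genes with probucol, at 2325 against 1805 FPKM, with an interval of the ratio from 1.25 to 1.33. Its log2 ratio was 0.37, but -0.12 once centred on the sarcomere and Z-disc list. Fhl1, a LIM-only protein that binds titin and relays strain signals, had 98.8 against 94.3 FPKM, a log2 ratio of 0.07 that was -0.08 after rescaling each library to the same total (TPM). Its interval of the ratio as reported, 0.972 to 1.13, included equality. Centred on the sarcomere and Z-disc list, Fhl1 had a log2 ratio of -0.42.

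Xirp1 and Xirp2 encode Xin repeat proteins of the intercalated disc, which bind actin. Xirp1 had 30.7 FPKM with probucol and 30.1 FPKM without, a log2 ratio of 0.03 that turned to -0.11 after rescaling to TPM. Its interval of the ratio was 0.943 to 1.11. Xirp2 had 67.8 against 71.4 FPKM, a log2 ratio of -0.07. Its interval of the ratio, 0.916 to 0.986, did not include equality. As reported, both genes thus differed between libraries by less than 1.1-fold at more than 1000 fragments each (1154 and 1259 for Xirp1, 5312 and 6233 for Xirp2). Centred on the sarcomere and Z-disc list, the log2 ratios were -0.45 for Xirp1 and -0.56 for Xirp2. The span of Xirp1 lies within that annotated for Cx3cr1 on the same strand, a macrophage gene with 1.14 against 2.08 FPKM, and the sources used here do not say how the authors treated overlapping genes. Acta1, Xirp2 and Rcan1 also overlap gene models on the opposite strand (Gm20388, Gm13601 and Gm46555) that have no rows in the files, and whether strand was used in counting is not stated.

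Rcan1 encodes an inhibitor of calcineurin, the phosphatase that activates NFAT factors, and its short isoform is itself induced by calcineurin. It had 77.6 FPKM with probucol and 110.3 FPKM without, a log2 ratio of -0.50, inside the 1.5-fold limit. It lay past that limit after rescaling to TPM (-0.65) and when centred on the sarcomere and Z-disc list (-0.99). The files give 1 value per symbol, so the isoforms cannot be separated. About 1024 and 1624 fragments stood behind the FPKM ratio of 0.704, with an interval of 0.650 to 0.761. Its paralog Rcan2 had 202 against 165 FPKM, a log2 ratio of 0.29 that was -0.19 when centred on the sarcomere list. The ratio of Rcan1 to Rcan2 within a library was 0.383 with probucol and 0.668 without. Calcineurin, NFAT and MEF2 genes had 0 of 19 measured genes past 1.5-fold in either direction, against 12.0% lower and 5.52% higher over all measured genes. Their median was 0.10, and -0.03 after rescaling to TPM. Ppp3cc (0.53), a catalytic calcineurin subunit, and Nfatc4 (-0.44) lay furthest from 0.

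**Figure D3:**
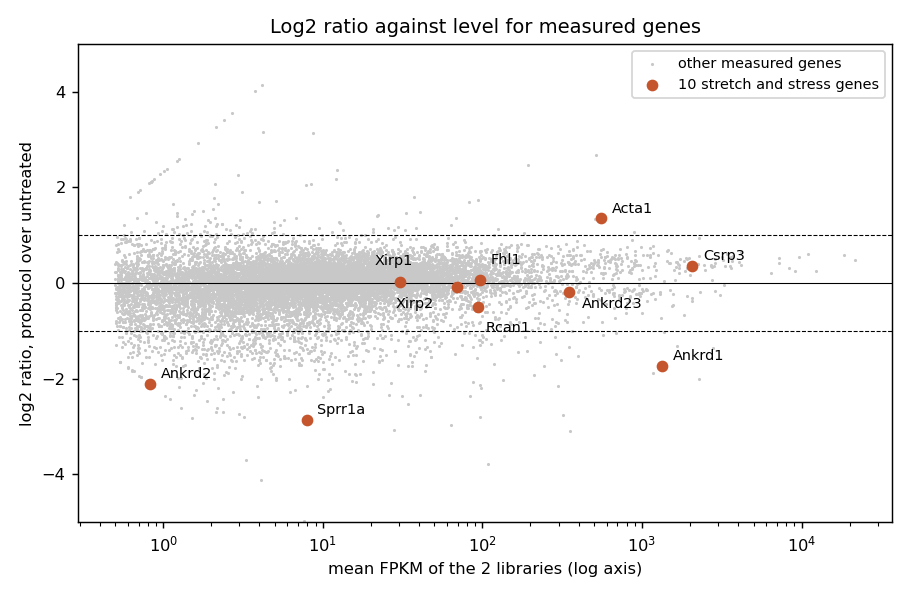
Log2 ratio, probucol over untreated, against the mean FPKM of both libraries on a log axis, for 12856 measured genes (grey, 26 genes beyond 5 log2 units not drawn) and the 10 stretch and stress genes (orange); dashed lines mark 2-fold. Ankrd1, Ankrd2, Sprr1a and Acta1 lie outside the 2-fold lines, and 6 of the 10 genes lie between the lines.

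Sarcomere and Z-disc genes lay higher in the probucol library than most of the 10 genes, and than most genes overall. The log2 ratios of all 20 sarcomere and Z-disc genes were positive, from 0.15 to 0.82 around a median of 0.48. Of the 20, 5 were at least 1.5-fold higher, against 5.52% of all measured genes. Among the 5 were Myom2 (0.82), which crosslinks myosin at the M-line, and Myl2 (0.59), the ventricular myosin light chain. Of the 10 stretch and stress genes, 8 lay below the lowest gene of that list, Csrp3 lay inside its range and Acta1 above it. Of all measured genes, 66.8% also lay below that lowest gene, so the count of 8 is not particular to the 10 genes. As a share of Myh6, the adult myosin heavy chain, Ankrd1 FPKM came to 13.9% with probucol and 68.0% without. The same share was 52.1% against 59.9% for Csrp3, 7.31% against 12.3% for Ankrd23, and 17.7% against 10.3% for Acta1. In bulk tissue, fewer cells of a type and less RNA per cell cannot be told apart.

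Macrophage and fibroblast transcripts moved with the lower genes. Each of the 10 macrophage markers was past 1.5-fold on the lower side with probucol, against 12.0% of all measured genes. The macrophage markers had summed levels of 1028 against 3562 FPKM. They were led in level by Lyz2 (497 against 1831 FPKM), C1qb and Ctss. Of 10 fibroblast markers, 8 were at least 1.5-fold lower, with sums of 913 against 1584 FPKM, and Dcn, Col3a1 and Postn were the most abundant. Their part in the values of Ankrd1, Sprr1a and Rcan1 was not tested. Endothelial markers had a median of -0.04, with 1 of 10 past 1.5-fold, and smooth muscle markers a median of 0.11.

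Other genes of the Z-disc and costamere, the anchor of the sarcomere to the cell membrane, mostly lay above 0 (15 of 20), although 14 of 20 lay below it when centred on the sarcomere and Z-disc list. Of 20 strain sensors and chaperones, 4 were past 1.5-fold on the higher side and 0 on the lower, around a median of 0.23. Over all measured genes, 5.52% were past that limit on the higher side and 12.0% on the lower. Myot, the Z-disc protein myotilin, had 38.4 against 17.5 FPKM, a log2 ratio of 1.11. The ubiquitin ligase gene Fbxo32 (0.79), the co-chaperone Bag3 (0.68), which serves the turnover of damaged Z-disc proteins, and the small heat shock gene Hspb1 (0.66) followed. Flnc, whose protein filamin C is a client of Bag3, had 34.2 against 33.7 FPKM.

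Other fetal and hypertrophy genes also lay on both sides of 0, with 5 of 12 measured genes above and 7 below. Of these, 3 passed the 1.5-fold limit on the lower side and 1 on the higher, against 12.0% and 5.52% of all measured genes. The median of the 12 genes was -0.21. The metallothionein Mt2 (-1.93), Nppa, the atrial natriuretic peptide (1565 against 4005 FPKM, -1.36), and the stress cytokine Gdf15 (-0.85) were the lower ones. The slow myosin Myh7b (0.74) was the higher one. The ratio of Ankrd1 to Nppa within a library, 0.396 with probucol and 0.512 without, differed less than either gene alone. Of 6 measured atrial markers, Nppa among them, 3 lay above 0 and 3 below, around a median of 0.16. Myl4 (7.53 against 5.75 FPKM), Stard10 (17.7 against 13.8 FPKM) and Tbx5 (6.28 against 4.66 FPKM) lay above, and Dkk3 (2.51 against 2.68 FPKM) and Nr2f2 (2.95 against 2.98 FPKM) slightly below. All 6 lay below 0 when centred on the sarcomere and Z-disc list. Of the atrial markers that did not pass the filter, Sln had 0.958 FPKM with probucol and 0 without, and Myl7 was listed at 0 in both libraries.

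Among the TEAD and YAP genes, whose factors bind MCAT elements and of which Ankrd1 is a known target, 2 of 19 measured genes passed 1.5-fold on the lower side and 0 on the higher. The shares over all measured genes were 12.0% and 5.52%, so the count of 2 is not particular to this list. The median of the 19 genes was 0.00, with 11 genes above 0 and 8 below, but 7 and 12 after rescaling to TPM. The targets Ctgf (93.9 against 88.2 FPKM) and Cyr61 (29.9 against 24.2 FPKM) had log2 ratios of 0.09 and 0.30, and Tead1, a TEAD factor of heart muscle (37.3 against 27.4 FPKM), had 0.44. These signs depend on the scaling: Ctgf had -0.06 after rescaling to TPM, and Ctgf, Cyr61 and Tead1 had -0.39, -0.19 and -0.05 when centred on the sarcomere and Z-disc list. Ctgf, Cyr61 and Tead1 were singled out after their values were seen. The kinase Nuak2 (-1.12), the cofactor Vgll3 (-0.85) and Tead2 (-0.58) lay furthest below 0 and Amotl2 (0.52) furthest above.

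SRF and MRTF genes, which include known regulators of Acta1, had 4 of 18 measured genes past 1.5-fold on the lower side and 1 on the higher, around a median of -0.08. Beside this list and the gp130 list below, 12.0% of all measured genes were past that limit on the lower side and 5.52% on the higher. The early response genes Fos (2.06 against 6.25 FPKM) and Egr1 (2.92 against 7.15 FPKM) and the tropomyosin Tpm4 (-0.81) were lower, and Actg2 (0.74) was higher. Srf itself, singled out after its value was seen, had 34.0 against 29.6 FPKM. Its log2 ratio of 0.20 was -0.29 when centred on the sarcomere and Z-disc list. Of the gp130 cytokine pathway, which induces Sprr1a, 5 of 16 measured genes were past 1.5-fold on the lower side and 0 on the higher, around a median of -0.36. Reg3b (-1.13), a secreted lectin, Socs3 (-1.13), the feedback inhibitor of this pathway, the AP-1 subunit Junb (-0.93) and Bcl3 (-0.84) were the lowest. The receptor Il6st, which encodes gp130 itself and was singled out after its value was seen, had 51.5 against 48.5 FPKM. Its log2 ratio of 0.09 was -0.06 after rescaling to TPM and -0.40 when centred on the sarcomere and Z-disc list.

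**Figure D4:**
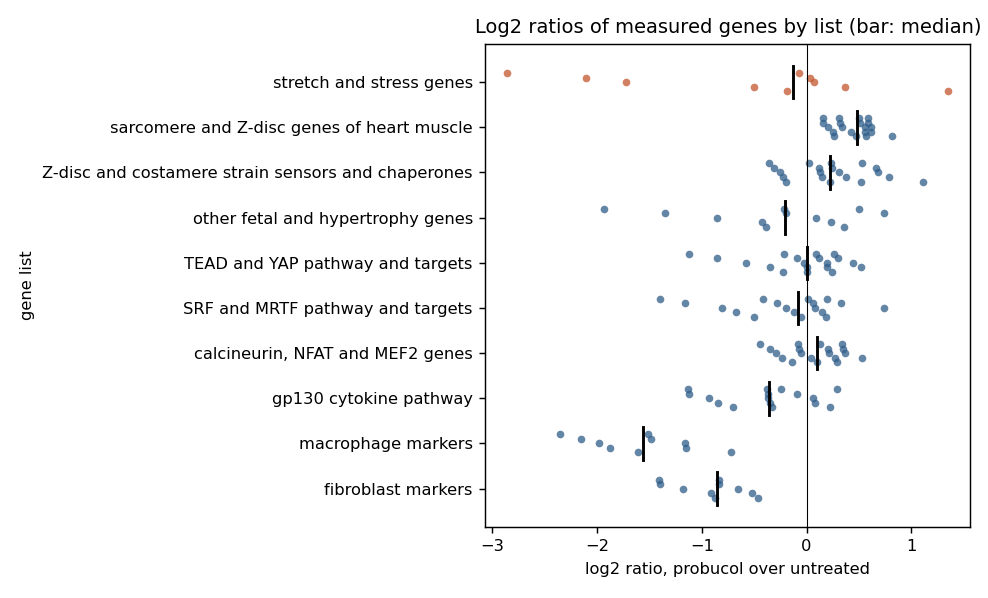
Log2 ratio, probucol over untreated, of every measured gene in the 10 stretch and stress genes (orange) and in 9 other lists (blue); 1 point per gene, black bars are medians. The sarcomere list lies wholly above 0 and the macrophage and fibroblast markers wholly below, while the 10 genes spread from -2.86 to 1.35.

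Paralogs and other ankyrin repeat genes outside the 10 genes also differed in part. Of 20 such genes, 13 were measured, of which 3 were past 1.5-fold on the lower side, 1 on the higher side and 0 past 2-fold. At 1.5-fold the shares over all measured genes were 12.0% lower and 5.52% higher. The lower genes were Actb (-0.84), Actg1 (-0.76) and Ankrd37 (-0.88), and the higher one was Actg2. Ankrd37 is a small ankyrin repeat gene outside the family of Ankrd1, Ankrd2 and Ankrd23. Ankrd10 had -0.46. The LIM genes Csrp1 (44.2 against 65.0 FPKM) and Csrp2 (31.8 against 40.7 FPKM) lay below 0, where Csrp3 lay too once centred on the sarcomere and Z-disc list. Fhl2, the LIM-only protein of heart muscle, had 1652 against 1579 FPKM, so its ratio to Fhl1 was 16.7 in both libraries, and Fhl3 had 5.46 against 6.44 FPKM. Rcan3 had 3.51 against 4.22 FPKM.

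**Figure D5:**
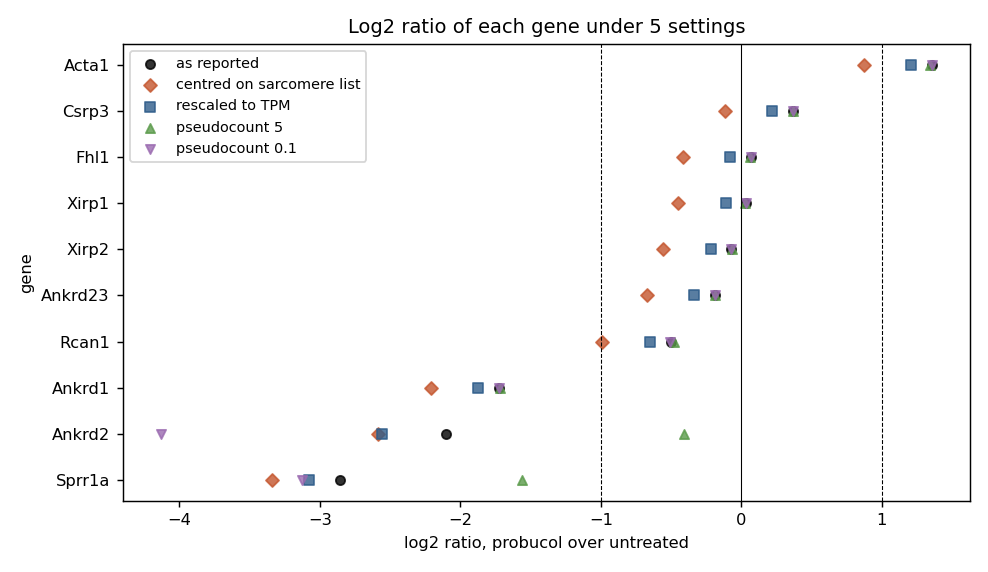
Log2 ratio of each of the 10 genes under 5 settings: as reported (black), centred on the median of the sarcomere and Z-disc list (orange), rescaled to TPM (blue), and with pseudocounts of 5 (green) and 0.1 (purple) FPKM; dashed lines mark 2-fold. Ankrd1 and Sprr1a stay beyond the lower line in each of these settings, Ankrd2 moves with the pseudocount, and Acta1 moves inside the upper line, to 0.87, when centred on the sarcomere list.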

How the data were processed

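Messenger RNA libraries (TruSeq stranded kit, per the labels' protocols) from 2 samples of mouse heart were compared. The authors deposited 1 FPKM value per gene symbol and library. Tools listed without roles in the submitters' processing notes are Cuffdiff 2.2.1, TopHat2 2.1.1 and Bowtie2, with the build mm10. The sources used here do not state the annotation, the use of strand in counting or how libraries were scaled to each other. FPKM moves with whatever else a library holds.

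Groups came from the treatment label. Log2 ratios used a pseudocount of 0.5 FPKM and a mean of at least 0.5 FPKM. With 1 library per group no test was possible, and no p-value is given. Estimated fragment numbers came from FPKM, GENCODE M21 lengths of RefSeq transcripts less 210 bases, and the value of 1 fragment found from 944 and 875 low values, of which 81.5% and 80.6% lay within 0.15 of a whole fragment; they were rounded, and the shortest transcript was used. The procedure was also run on simulated data (numpy 2.4.6, scipy 1.17.1). These were Poisson counts of genes with 1 RefSeq transcript, made with the same 210 bases subtracted and nearly the same values of 1 fragment as found here. The simulation therefore shares the assumptions of the procedure and cannot check them, and it does not cover PCR copies or genes with several transcripts.

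The 10 genes, the lists and the limits were chosen with earlier results of these data known. Named were the 10 genes, measured paralogs and other ankyrin repeat genes, and up to 4 genes per pathway list with the largest ratios (at least 2 FPKM). Up to 3 markers per list by level and the 3 genes nearest in ratio to Ankrd1, Sprr1a and Acta1 were also named. Other names were chosen after their values were seen. Alternatives varied the pseudocount, the filter and the scaling.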

Additional observations from a re-analysis of the deposited data

How the results depend on the processing

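Of 9 alternatives (3 pseudocounts, 2 filters, 4 scalings), only the 4 scalings could change the sign of a log2 ratio. A pseudocount or a filter leaves the sign as it is. Under the scalings, 7 of the 10 genes kept their sign, and Csrp3, Fhl1 and Xirp1 did not. Over all 9 alternatives, Ankrd1 ranged from -2.21 to -1.72, Sprr1a from -3.34 to -1.56 and Acta1 from 0.87 to 1.36. Ankrd2, which rests on about 11 fragments, ranged from -4.13 to -0.41 and is left out at a mean of at least 5 FPKM, so 2 genes were at least 2-fold lower there and with a pseudocount of 5. Rescaling to TPM moved the median of all genes by -0.14. Centring on the sarcomere and Z-disc list moved it by -0.48: 0 genes were then at least 2-fold higher, and 5 were at least 1.5-fold lower, since Rcan1 had -0.99 and Ankrd23 -0.67; with TPM 4 were, since Rcan1 had -0.65. By estimated fragments, untreated shares of Ankrd1, Ankrd23 and Ankrd2 were 85.0%, 14.9% and 0.0337%, against 84.6%, 15.3% and 0.0681% by FPKM. Among the 10 genes, depth limits Ankrd2 and Sprr1a most. No paired analysis was possible because each group has 1 library and the result comes from no test.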

Other observations

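With 2 libraries, the likeness of genes is their log2 ratio alone. It was read among genes that reached 20 FPKM in either library. Predicted genes (Gm, Rik and LOC names), Mir and Sno names and rows of several genes were left out. Nearest to Ankrd1 were the myeloid adaptor gene Tyrobp (113 against 376 FPKM, -1.73), the chemokine gene Ccl2 (-1.73) and the iron exporter gene Slc40a1 (-1.71). Nearest to Sprr1a (-2.86) were Timp1 (-2.80), an inhibitor of metalloproteinases, the chemokine gene Ccl8 (-2.77) and the heme oxygenase gene Hmox1 (-2.96). Nearest to Acta1 were Rn45s (1.35), the ribosomal RNA precursor, Alas2 (1.36), an enzyme of heme synthesis in red cell precursors, and Adhfe1 (1.40).

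The chromosomal neighbours of the genes chosen for large differences are given for context. Rpp30 (13.2 against 11.9 FPKM) and Pcgf5 (35.9 against 32.3 FPKM) flank Ankrd1, and both had a log2 ratio of 0.15. The next genes outward, Htr7 (0.260 against 0 FPKM) and Hectd2 (0.361 against 0.765 FPKM), were barely detected. Ccsap (-0.29) and Nup133 (0.10) flank Acta1, with Rab4a (0.40) and Abcb10 (0.49) beyond them. Ubtd1 (-0.22) and Hoga1 (0.21) flank Ankrd2, and Mms19 beyond had -0.02.

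The make-up of the 10 genes also differed between the libraries. Their summed level was 4339 FPKM with probucol and 4859 FPKM without. Csrp3 held 53.6% of that sum with probucol and 37.2% without, Ankrd1 held 14.3% against 42.2%, and Acta1 held 18.2% against 6.36%. The ratio of Ankrd1 to Acta1 within a library was 0.783 with probucol and 6.64 without, 8.47-fold apart; the pair was chosen for its opposite directions.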
